A study of Mus musculus with 3 samples.

Results

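The clustered, replication-dependent histone genes were described on the expression arrays of J1 mESCs treated with PD. Members were the mouse genes named Hist1h to Hist4h in the older nomenclature, found by matching the accession of each probe to the RefSeq gene table. The table held 70 such genes, of which 47 had at least 1 matched probe, among 20660 named genes on the arrays. These 47 genes were measured by 52 of 27235 named probes, each with 1 spot per array. The rule for members used names and no measured value, but members were chosen with earlier results of these data known.

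J1 cells are mouse embryonic stem cells (mESCs) of strain 129S4/SvJae. PD (PD0325901) is an inhibitor of the kinase MEK, and was given at 1 µM for 24 h to feeder-free cells on gelatin, in medium that held Knockout Serum Replacement and 1000 U/mL of leukemia inhibitory factor (LIF). The 3 samples, replicates 1 to 3 of this 1 group, were total RNA hybridised in 1 colour (Cy3), with the 3 arrays on 1 slide and in 1 scan. Cells without PD were not analysed here, so no effect of PD was compared and no p-value was computed.

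Histones package DNA into nucleosomes. H2A, H2B, H3 and H4 form the core particle, and H1 binds the linker DNA between particles. Replication-dependent histone genes lie in clusters, lack introns and are transcribed in S phase, when new DNA has to be packaged. Their mRNAs end in a stem-loop bound by the protein Slbp, and not in a poly(A) tail like other mRNAs. Embryonic stem cells divide fast and spend much of their cycle in S phase.

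The promoters of several members are shown here because the genes of a family can be set side by side there, and because the levels of these genes are given further on. Each line is the stretch of 120 bases that ends just before the transcription start, read 5′ to 3′ on the strand of the gene, from RefSeq on GRCm38.p6. Capitals mark 4 motifs, searched on both strands. One is the TATA box, spelled TATAAA, where the basal machinery binds. Another is the CCAAT box. The octamer core, the element that Oct factors bind, was searched as ATGCAAA. The H1 box, an element known from linker histone promoters, was searched as AAACACA. No motif of this set contains another. The first 3 are linker histone genes, among them Hist1h1d, which was not detected, and Hist1h1t, known from the testis.
Hist1h1d, chr13:23554912-23555031, plus strand: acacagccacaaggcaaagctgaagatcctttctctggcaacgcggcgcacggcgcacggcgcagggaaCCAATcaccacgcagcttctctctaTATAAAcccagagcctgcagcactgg
Hist1h1e, chr13:23622559-23622678, minus strand: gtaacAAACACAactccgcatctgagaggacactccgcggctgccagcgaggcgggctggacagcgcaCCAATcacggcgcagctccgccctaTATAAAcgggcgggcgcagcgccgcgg
Hist1h1t, chr13:23695691-23695810, plus strand: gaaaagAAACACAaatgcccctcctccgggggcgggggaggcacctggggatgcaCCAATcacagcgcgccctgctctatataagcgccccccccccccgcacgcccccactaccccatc

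Next are members of the core families that carry results below. Hist1h2aa and Hist1h2ba, known as the testis forms TH2A and TH2B, are neighbours that point away from each other. Hist1h2ah, Hist1h2bm and Hist1h4k had the brightest probe of H2A, H2B and H4 on these arrays, and Hist1h3i and Hist1h4j had the largest spread in H3 and H4.
Hist1h2aa, chr13:23934317-23934436, plus strand: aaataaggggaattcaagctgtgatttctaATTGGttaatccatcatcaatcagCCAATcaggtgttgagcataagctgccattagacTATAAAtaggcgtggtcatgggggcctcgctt
Hist1h2ba, chr13:23934157-23934276, minus strand: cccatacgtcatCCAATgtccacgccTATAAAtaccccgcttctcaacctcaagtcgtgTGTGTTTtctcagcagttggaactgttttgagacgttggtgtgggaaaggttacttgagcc
Hist1h2ah, chr13:22035644-22035763, minus strand: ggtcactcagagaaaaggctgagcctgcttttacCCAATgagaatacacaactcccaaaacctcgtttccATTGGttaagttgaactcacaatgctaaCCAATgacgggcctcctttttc
Hist1h2bm, chr13:21721924-21722043, plus strand: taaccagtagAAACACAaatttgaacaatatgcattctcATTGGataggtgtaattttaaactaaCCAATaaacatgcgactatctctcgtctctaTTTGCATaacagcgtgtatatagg
Hist1h3i, chr13:21783398-21783517, minus strand: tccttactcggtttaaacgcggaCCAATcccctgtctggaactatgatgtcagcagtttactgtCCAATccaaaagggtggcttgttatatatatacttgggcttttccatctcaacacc
Hist1h4k, chr13:21750554-21750673, minus strand: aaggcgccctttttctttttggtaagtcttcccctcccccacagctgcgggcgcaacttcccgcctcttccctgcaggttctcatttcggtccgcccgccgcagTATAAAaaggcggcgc
Hist1h4j, chr13:21734914-21735033, plus strand: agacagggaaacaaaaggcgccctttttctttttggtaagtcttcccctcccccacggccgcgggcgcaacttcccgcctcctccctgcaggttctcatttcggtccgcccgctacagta

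The promoter table held 62 of the clustered genes, 42 of them with a probe, among 27025 promoters. Over the 250 bases before the start, CCAAT was present in 51 of the 62 (82.3%), against 34.5% of all promoters. It was in all 6 H1, all 18 H2A and all 16 H2B promoters, in 8 of 10 H3 promoters and in 3 of 12 H4 promoters. TATAAA was present in 29 of 62 (46.8%), against 13.0% of all promoters. The octamer core was present in 14 of 62 (22.6%), against 4.06% of all promoters, and 13 of these 14 were H2A or H2B promoters. The H1 box was in 5 of 6 H1 promoters and in 4 others, against 6.22% of all promoters. The printed window of Hist1h1d carries the CCAAT and TATA letters, and that of Hist1h1e carries these and the H1 box. The 120 bases of Hist1h1a, a detected member not printed here, also carry only the CCAAT and TATA letters. The counts are over 250 bases, so a motif absent from a printed window may lie before it. These are matches of letters and were not tested as binding sites.

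Nearly all members on the arrays were detected. A probe was taken as detected when the scanner software flagged it well above background on all 3 arrays. By this rule 45 of 47 members (95.7%) were detected, against 72.7% of all named genes, and 49 of 52 member probes, against 72.4% of all named probes. No member was detected on only 1 or 2 arrays. With any replicate left out the count was again 45, which follows from this and is no separate check. In the clusters, 34 of 36 members on the arrays were detected in Hist1 (chromosome 13), 8 of 8 in Hist2 (chromosome 3), 2 of 2 in Hist3 (chromosome 11) and 1 of 1 in Hist4 (chromosome 6). Another 23 clustered genes had no matched probe and were not measured: 6 in H2A, 8 in H2B, 5 in H3, 4 in H4 and 0 in H1.

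The level of a probe is the log2 of its processed signal minus the 75th percentile of that array, so a level of 0 is that percentile. Of the 45 detected members 27 had a mean level above 0, a share of 60.0% against 57.1% of all detected named genes. The median level of the members was 1.98, against 0.61 for all detected named genes. Probes differ in how well they bind, so levels give no order of the genes. Where the brightest probe of a family is given, it only picks a probe to show. Near-identical paralogs may hybridise to one probe, and a value may then include transcripts of other members. The plot of levels by family shows every member on every array.

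**Figure D1:**
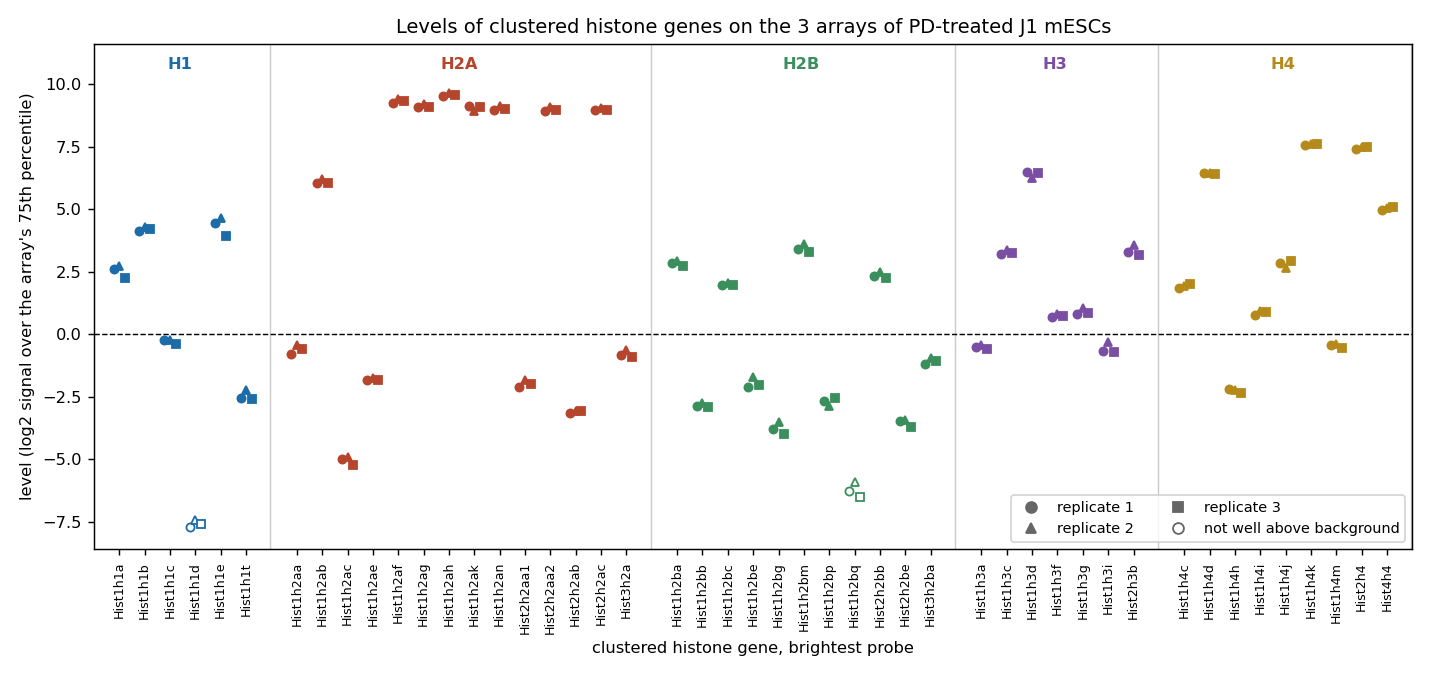
Level of the 47 clustered histone genes on each of the 3 arrays (y axis, log2 of signal over the 75th percentile of the array), by gene and family (x axis). Circles, triangles and squares are replicates 1, 2 and 3, open symbols are values not well above background, and the dashed line is the 75th percentile. The 3 values of a gene lie close together, at most 0.75 apart among detected members, while mean levels run from -5.05 to 9.57.

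The H1 family encodes the linker histones. Hist1h1a, Hist1h1b, Hist1h1c, Hist1h1e and Hist1h1t were detected, 5 of 6 members, with mean levels between -2.47 and 4.34. Hist1h1e had the brightest probe and the largest spread of the family, with levels of 4.46, 4.66 and 3.91 on replicates 1, 2 and 3 (4.34 ± 0.39, SD, n = 3). It was lowest on replicate 3, and its range of 0.75 was the widest of the 45 detected members. Hist1h1a, named here after its values were seen, was also lowest on replicate 3, at 2.62, 2.74 and 2.25. The linker histone gene not detected was Hist1h1d, whose only probe was at -7.71, -7.43 and -7.60. A probe of Hist4h4 had a mean level of -7.68 while the other probe of that gene had 5.02. A value this low on a single probe therefore does not show that a gene is silent. The processed signal of Hist1h1d was 2.77 ± 0.18 (SD, n = 3), under the lowest signal flagged well above background on any of the arrays (10.1, 11.4 and 10.3).

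Hist1h1t encodes the linker histone H1t, known from spermatocytes. Its levels were -2.53, -2.25 and -2.61 (-2.47 ± 0.19, SD, n = 3), and it was well above background on each array. The other members known mainly from germ cells were detected as well. Hist1h2aa was at -0.79, -0.43 and -0.60 (-0.61 ± 0.18), and Hist1h2ba at 2.84, 2.91 and 2.74 (2.83 ± 0.09). All of these were highest on replicate 2. Of 6 male germ cell markers, Ddx4, Sycp3, Prm1, Prm2 and Tnp1 were detected at mean levels from -3.66 to 1.25, and Acrv1, an acrosomal gene, was not. Of 4 oocyte markers, Zp3 and Gdf9 were detected, while Zar1 reached the flag on 2 arrays only and Bmp15 on none. The detected shares were 83.3% and 50.0% of these lists, against 72.7% of all named genes, so they do not show that germ cells were present. The source of the germ-line histone transcripts was not tested.

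In H2A, all 14 members were detected: Hist1h2aa, Hist1h2ab, Hist1h2ac, Hist1h2ae, Hist1h2af, Hist1h2ag, Hist1h2ah, Hist1h2ak, Hist1h2an, Hist2h2aa1, Hist2h2aa2, Hist2h2ab, Hist2h2ac and Hist3h2a. Their mean levels spanned -5.05 to 9.57, with 8 above 0 and 6 below. Hist1h2ah, with the brightest probe, was at 9.51, 9.65 and 9.56 (9.57 ± 0.07, SD, n = 3). Its signal was 402470 ± 6559, and no spot on any array was flagged as saturated. Hist1h2ac, with the largest spread of the family, was at -4.99, -4.91 and -5.25 (-5.05 ± 0.18), and its signal of 16.1 ± 1.96 lay just above the lowest signals flagged well above background. Hist1h2ak had a pair of probes, both detected, that did not move together. Its brighter probe was at 9.11, 8.91 and 9.09, lowest on replicate 2. The dimmer probe was at 6.77, 6.94 and 6.82, highest on replicate 2.

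In H2B, 10 of 11 members were detected: Hist1h2ba, Hist1h2bb, Hist1h2bc, Hist1h2be, Hist1h2bg, Hist1h2bm, Hist1h2bp, Hist2h2bb, Hist2h2be and Hist3h2ba. Mean levels spanned -3.75 to 3.44. Hist1h2bm, with the brightest probe, was at 3.42, 3.61 and 3.30 (3.44 ± 0.16, SD, n = 3). Hist1h2bg had the largest spread, at -3.78, -3.51 and -3.97 (-3.75 ± 0.23). Both were highest on replicate 2 and lowest on replicate 3. Hist1h2bq, whose only probe was at -6.28, -5.92 and -6.53, did not reach the background flag on the 3 arrays and had a signal of 7.09 ± 1.39. It passed a looser flag of the software, a signal positive and significant, which raised the number of detected members to 46.

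In H3, all 7 members were detected: Hist1h3a, Hist1h3c, Hist1h3d, Hist1h3f, Hist1h3g, Hist1h3i and Hist2h3b. Mean levels spanned -0.57 to 6.40, and 5 were above 0. Hist1h3d, with the brightest probe, was at 6.50, 6.26 and 6.44 (6.40 ± 0.13, SD, n = 3) and lowest on replicate 2. Hist1h3i, with the largest spread, was at -0.68, -0.33 and -0.71 (-0.57 ± 0.21) and highest on replicate 2.

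In H4, all 9 members were detected: Hist1h4c, Hist1h4d, Hist1h4h, Hist1h4i, Hist1h4j, Hist1h4k, Hist1h4m, Hist2h4 and Hist4h4. Mean levels spanned -2.26 to 7.57. Hist1h4k had the brightest probe, at 7.54, 7.58 and 7.59 (7.57 ± 0.02, SD, n = 3). Its other probe, also detected, was at 4.39, 4.52 and 4.41 and highest on replicate 2, where the brighter one was not. Hist1h4j had the largest spread, at 2.86, 2.63 and 2.91 (2.80 ± 0.15), and was lowest on replicate 2. Probes of 1 gene differed in detection only for Hist4h4 among the 5 members with a pair of probes. The brighter probe of Hist4h4 was at 4.95, 5.04 and 5.06, while the other was not well above background, at -7.79, -7.53 and -7.71. Both probes of Hist2h4 were detected, at 7.41, 7.46 and 7.50 and at -4.27, -4.13 and -3.85. For Hist1h4k, Hist2h4, Hist4h4 and Hist1h2ak the probe chosen sets the level.

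The 3 arrays gave close values for the members. The median SD of the 45 detected members was 0.10 on the log2 scale, against 0.07 for all detected named genes. By family it was 0.19 in H1, 0.09 in H2A, 0.14 in H2B, 0.12 in H3 and 0.07 in H4. From the dimmest to the brightest quartile of all detected named genes, the members' median SD was 0.16, 0.11, 0.08 and 0.08. It was 0.14, 0.08, 0.06 and 0.06 over all genes of those quartiles. A range above 1 log2 unit, a 2-fold difference between arrays, was found in 0 of 45 members and in 0.987% of all detected named genes. So small a share leaves few to expect among 45, and the 0 does not set the members apart.

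Within this small spread, most members were highest on the same array. Of the 45 detected members, 35 (77.8%) had their highest level on replicate 2, against 46.5% of all detected named genes. Another 3 members (24.5% of all genes) were highest on replicate 1 and 7 (29.0% of all genes) on replicate 3. Replicate 2 was the lowest for 4 members, against 27.4% of all genes, while 19 members were lowest on replicate 1 (37.1% of all genes) and 22 on replicate 3 (35.5%). It lay farthest from the gene's median for 28 members, above it for 24 and below it for 4, and for 42.8% of all genes. These counts describe 3 samples, and a single array per sample cannot tell the cells of replicate 2 from its RNA or its hybridisation.

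The differences on replicate 2 were small in size. The median over members of replicate 2 minus replicate 1 was 0.12, against 0.03 over all detected named genes, and it was above 0 for 40 of 45 members and for 60.3% of all genes. Replicate 2 minus replicate 3 had a median of 0.13, against 0.03, and was above 0 for 36 of 45 members and for 58.7% of all genes. Replicate 1 minus replicate 3 had a median of 0.01 in the members and -0.01 in all genes. Set against the mean of the other replicates, replicate 2 was higher by a median of 0.12, and the members ran from -0.27 to 0.47. The size depended on the scaling. The median departure of the members on replicate 2 from the gene's median over the arrays was 0.09, and it was 0.02 after scaling to the median of each array. That scaling moved all values of replicate 2 by -0.05 relative to the mean shift of the 3 arrays. The same departure had a median of 0 over all detected named genes with the scaling used. Replicate 2 minus the mean of the others had a median of 0.03 over all genes, with 90% of them between -0.29 and 0.27. Members share the cells, the labelling and the array of each replicate, so their counts are not independent observations.

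**Figure D2:**
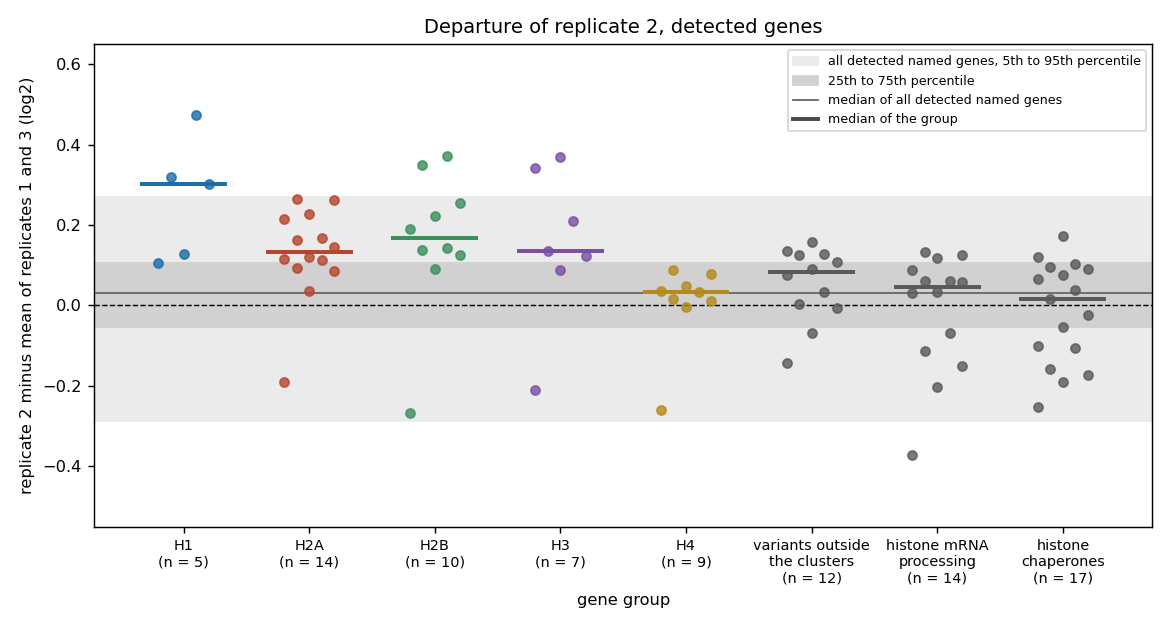
Level on replicate 2 minus the mean level on replicates 1 and 3 (y axis, log2) for detected genes, by histone family and comparison list (x axis). Each point is a gene, thick lines are medians of a group, the dark and light bands hold the 25th to 75th and 5th to 95th percentiles of all detected named genes, and the thin line is their median of 0.03. The medians of H1, H2A, H2B and H3 lie between 0.13 and 0.30, and that of H4 is 0.03.

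The families are given one by one. All 5 detected H1 members were highest on replicate 2, as were 12 of 14 in H2A, 9 of 10 in H2B and 6 of 7 in H3. In H4 it was 3 of 9, and 5 were highest on replicate 3. Over all detected named genes 46.5% were highest on replicate 2. In these 5 H4 members replicate 2 minus replicate 3 was -0.006 (Hist1h4k), -0.02 (Hist4h4), -0.03 (Hist2h4), -0.08 (Hist1h4c) and -0.28 (Hist1h4j). Some are near ties, and the other detected probe of Hist1h4k was highest on replicate 2, so the H4 count hangs on small differences and probe choice. The median of replicate 2 minus the mean of the others was 0.30 in H1, 0.13 in H2A, 0.17 in H2B, 0.14 in H3 and 0.03 in H4. The differences between families were not tested. In H1, replicate 2 was above replicate 1 by a median of 0.15 and above replicate 3 by 0.36, since Hist1h1a, Hist1h1c, Hist1h1e and Hist1h1t were lowest on replicate 3. By cluster, 27 of 34 members were highest on replicate 2 in Hist1, 6 of 8 in Hist2, 2 of 2 in Hist3 and 0 of 1 in Hist4.

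The 4 members that were lowest on replicate 2, each named for that, were Hist1h2ak, Hist1h2bp, Hist1h3d and Hist1h4j. Hist1h2bp was at -2.66, -2.88 and -2.57, and the values of the others are given above. Replicate 2 also had more spots of uneven signal by the flags of the scanner, 187 against 25 on replicate 1 and 8 on replicate 3. The array was divided into 48 blocks, and 6 blocks of replicate 2 held 10 or more such spots. Of these 4 members, Hist1h2ak, Hist1h2bp and Hist1h3d had their probe in such a block, as did 6 other detected members. None of the member spots was itself marked as an outlier. Outside these blocks lay 36 of the 45 detected members and 12998 of 14999 detected named genes. There 30 of 36 members were highest on replicate 2, against 46.6% of all genes, and 1 was lowest on it, against 26.3%. Whether uneven signal lowered any member on replicate 2 was not tested.

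The count was above that of all genes at each level of signal. In the dimmest quartile of all detected named genes, 7 of 10 members were highest on replicate 2, against 38.5% of the genes of that quartile. In the next ones it was 8 of 8 against 43.1%, 6 of 7 against 47.5% and, in the brightest, 14 of 20 against 56.7%. With other scalings of the arrays the count moved, and that of all genes moved with it. It was 33 of 45 after quantile normalization, against 43.1% of all genes, and 26 of 45 after scaling to the median of each array, against 23.2%. It was 35 of 45 with the percentile taken over detected probes (44.8% of all genes), 36 of 45 after normexp background correction (49.8%) and 33 of 45 in the table of log2 values that the authors deposited (40.8%). Keeping the spots with outlier flags left it at 35 of 45 (43.8%). No member spot carried such a flag, so this setting reached the members only through the scaling.

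**Figure D3:**
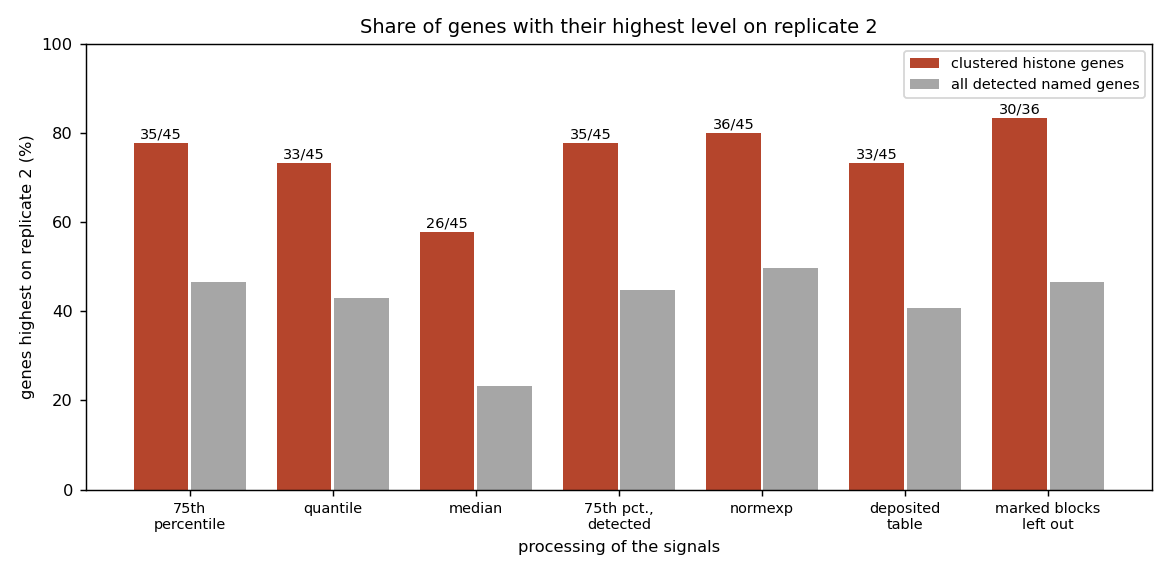
Share of genes with their highest level on replicate 2 (y axis, percent, from 0) under each processing of the signals (x axis), for the clustered histone genes and for all detected named genes. Numbers above the red bars are members highest on replicate 2 over members counted. The share of members was above that of all genes in each of the 7 settings, with the smallest count, 26 of 45, after scaling to the median of each array.

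Histone genes outside the clusters, which are made through the cell cycle and whose mRNAs carry poly(A) tails in most cases, were described for comparison. Of 14 such variants, 12 (85.7%) were detected, against 72.7% of all named genes. Hils1, a spermatid linker histone, did not reach the background flag on the 3 arrays, and H1fnt, another linker histone of the testis, reached it only on replicates 1 and 3. H2afz, which encodes H2A.Z, was at 8.52, 8.54 and 8.57, and H2afx, which encodes the DNA damage variant H2A.X, at 5.98, 6.11 and 5.96. The genes of the replacement histone H3.3 were at 6.19, 6.34 and 6.18 (H3f3a) and at 6.71, 6.73 and 6.74 (H3f3b). The variant with the largest spread was H1f0, the linker histone of resting cells, at -4.95, -4.48 and -4.07. Of the 12 detected variants 7 (58.3%) were highest on replicate 2, against 46.5% of all detected named genes.

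The factors that make and process histone mRNA were all detected, 14 of 14, against 72.7% of all named genes. Slbp, which binds the stem-loop, was at 2.22, 2.04 and 2.27 (2.17 ± 0.12, SD, n = 3), lowest on replicate 2. Npat, which activates transcription of the histone clusters, was at -4.76, -4.62 and -4.59 (-4.66 ± 0.09). Ncbp1, a subunit of the nuclear cap-binding complex, had the largest spread of the list, at 1.62, 1.26 and 1.64, also lowest on replicate 2. Of this list 8 of 14 genes (57.1%) were highest on replicate 2, against 46.5% of all detected named genes. The median of replicate 2 minus replicate 1 was 0.03, as over all genes.

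Histone chaperones, which carry histones to DNA, were also all detected, 17 of 17, against 72.7% of all named genes. Chaf1a, the large subunit of the chromatin assembly factor CAF-1, had the largest spread, at 2.79, 2.72 and 3.03. Of the chaperones 8 of 17 (47.1%) were highest on replicate 2, against 46.5% of all detected named genes. The median of replicate 2 minus replicate 1 was -0.01. It was 0.11 in the variants, 0.12 in the clustered genes and 0.03 in all detected named genes.

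The labelled cell type was checked on its markers. All 8 embryonic stem cell markers were detected (Pou5f1, Nanog, Sox2, Zfp42, Esrrb, Klf4, Tdgf1 and Dppa5a), against 72.7% of all named genes. Pou5f1, which encodes Oct4, was at 4.35, 5.04 and 4.28, so replicate 2 lay 0.73 above the mean of the others. Sox2 was at 3.55, 3.24 and 3.70, with replicate 2 lower, a difference of -0.38. Both lay outside the range that held 90% of all genes, and the other 6 markers lay inside it, between -0.06 and 0.16. The part of this in the differences of the histone genes on replicate 2 was not tested. Of 8 fibroblast markers, Col1a1, Col1a2, Thy1 and Pdgfrb were detected (50.0%, against 72.7% of all named genes). Col3a1 was detected on 1 array only, and Col5a2, Lum and Postn on none.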

How the data were processed

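Expression was measured in 3 PD-treated samples, which the study describes as independent experiments. Per the file headers, the authors deposited spot intensities from Agilent Feature Extraction 10.7.3.1, with background and trends removed within each array and no normalization between arrays. A table of log2 values per probe, whose normalization is not given in the sources used here, was also deposited by the authors. Amplification with the labelling kit starts at poly(A), so mRNAs without a tail may be measured in part, and to what extent is unknown.

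Probes were named by accession through the RefSeq table of GRCm38.p6, which matched 27235 of 55681 probes to 20660 genes. The array grid refers to mm9, so no probe coordinates are given. Signals were taken as log2, averaged over spots without outlier flags and scaled to the 75th percentile of each array (551, 511 and 527). Detection asked for the well-above-background flag on all arrays, in no fewer than 50% of the spots of a probe. A gene was represented by its brightest probe. SDs are over 3 arrays, whose number limits the precision. No test was made, since there was 1 group. Of 20660 named genes 15026 were detected, and 14999 had a value on every array once outlier spots were left out. The scaling and the difference of replicate 2 from the others were tested on simulated levels with known shifts of the members. Detection flags, outlier spots, normexp correction and motif matches were not simulated.

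Values on each array were given for the detected member with the brightest probe and that with the largest SD in each family, Hist1h1t, Hist1h2aa and Hist1h2ba, members with probes of different detection, 6 genes fixed in the comparison lists and the gene with the largest SD of each list. Members and lists were chosen with earlier results of these data known. Alternatives were quantile, median and detected-probe scaling, normexp background correction (offset 50) on median signals, since the files used here give medians of the raw signal and no means, the deposited table, other rules for probes, filters and detection, and leaving out each replicate. R 4.3.3 with limma 3.58.1 and Python 3.11.15 with pandas 2.3.3 and numpy 2.4.6 were used.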

Additional observations from a re-analysis of the deposited data

How the results depend on the processing

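Detection and spread held under the alternatives that were run. Detected members numbered 44 to 46 under other detection and probe rules, 0 members had a range above 1 log2 unit, and the median SD ran from 0.08 to 0.10, or from 0.05 to 0.12 with 1 replicate left out. The median level of the members, 1.98, was 5.72 with the median of each array, 0.0645 with the 75th percentile over detected probes, 1.76 with normexp, 2.17 with bright probes only and 1.41 without the blocks of replicate 2 that hold many non-uniform spots, and 1.95 to 2.00 with 1 replicate left out. The median of all named genes shifted by 3.74 and -1.92 in the first pair, where members stayed 1.37 above it, as with the scaling used; this was 1.20 with normexp. Replicate 2 lay farthest from the median for 28 members, and for 17 with the median of each array. Relative to the mean shift of the 3 arrays, that scaling moved replicate 2 by -0.05 and replicate 3 by 0.04 from the scaling used. The median departure of members on replicate 2, 0.09, ran from 0.02 with the median of each array to 0.11 without those blocks. How many members have replicate 2 farthest cannot be had from only 2 arrays. The share of members highest on replicate 2 exceeded that of all genes by 31.3 percentage points, by 27.9 to 36.7 under the other settings, and by 21.2 without replicate 1 and 28.5 without replicate 3. The count of members highest on replicate 2 and the setting without those blocks were added after seeing the data. The cause of these changes was not tested. No paired analysis was possible because there was only 1 group.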
